A study of Arabidopsis thaliana with 4 samples.

Results

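CC-type glutaredoxins form a class of small redox proteins found in land plants, and 10 such genes of Arabidopsis thaliana were set as members by a list of gene loci. The array annotation named a probe set for 9 of the 10, out of 11371 genes named and 19371 probe sets tested, and AT4G15670 was not analysed here. AT1G06830 was chosen by its measured ABA-against-mock change, one of the lowest on the array, so its values are a description without a test. The other 8 were taken as relatives of it. Each gene had 1 probe set, and none of the 9 carried the _s_at or _x_at ending that marks sets able to bind related transcripts. The probe sequences were not used here, so signal from a close paralog cannot be told apart from that of the named gene.

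Glutaredoxins use glutathione to reduce disulphides or to handle iron-sulphur clusters, and the CC type carries a pair of adjacent cysteines in its active site. Several CC-type proteins (ROXYs) bind TGA transcription factors in the nucleus and alter the expression of TGA target genes. Proteins of the CC type, within the member list or outside it, act in petal and anther development, in salicylic acid responses and in nitrogen signalling between shoot and root.

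The plants were wild-type seedlings of the Col-0 strain, with no transgene or mutation in either group. They were 14 days old, had been kept in 24 h light on MS medium, and were covered for 5 min with either 100 uM abscisic acid (ABA, the hormone of drought responses) or mock solution. Both liquids held MS basal salts, and the ABA one is described as also holding 0.1% Tween 20, while the mock samples are labelled MS-Tween. Shoots were cut from the roots 4 h later and pooled, 20 to 24 seedlings per pool. There were 2 pools and 2 arrays in each group, labelled as biological replicates.

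The deposited values are 1-colour array intensities. Arrays give no read depth, and 4 arrays limit the precision. A noise level was set for each array from the 1st percentile of its tested sets, which is negative, with the sign removed, and was 7.54 to 8.76. Changes are given on the log2(intensity + 16) scale, as ABA minus mock, and the threshold is a limma adjusted p of 0.05 over all probe sets. The ABA arrays were dimmer as a whole (median intensity 12.4 and 12.9, against 16.87 and 16.96 on the mock arrays), and the median change of all probe sets was -0.13. Quantile normalization moved that median to -0.0048, median centring to 0.070 and scaling on 9 spiked control sets to -0.34. All 9 spiked sets were brighter on the ABA arrays, by 0.11 to 0.74 in log2 units (median 0.55), opposite to the array medians. Of all probe sets, 19.6% were called lower and 3.97% higher. KIN1, COR15A and LEA4-5, the 3 named here of 11 genes known to be induced by ABA, were all called higher. That list too was chosen with earlier results of these data known.

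AT1G06830 (usually called GRXS11 or CEPD1) encodes a small protein known to move from shoot to root in the phloem and to raise nitrate uptake in roots when nitrogen is short. Its probe set read 152 and 179 on the mock arrays and 21.0 and 18.8 on the ABA arrays. Both mock arrays were high, both ABA arrays were low, and the groups did not overlap. The means were 166 ± 19.6 in mock shoots and 19.9 ± 1.60 after ABA (SD, n = 2 each), a ratio of 8.32 on the linear scale and a change of -2.34 on the log2 scale. Only 2 of the 19371 probe sets had a lower log2 change, which is what brought the gene into view. All 4 readings stayed above the noise level. The change ranged from -2.08 after quantile normalization to -2.68 with spike scaling, and from -2.99 with a pseudocount of 1 to -1.45 with 64. In a bulk shoot sample, fewer cells of a type that holds the transcript and less transcript per cell cannot be told apart.

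**Figure D1:**
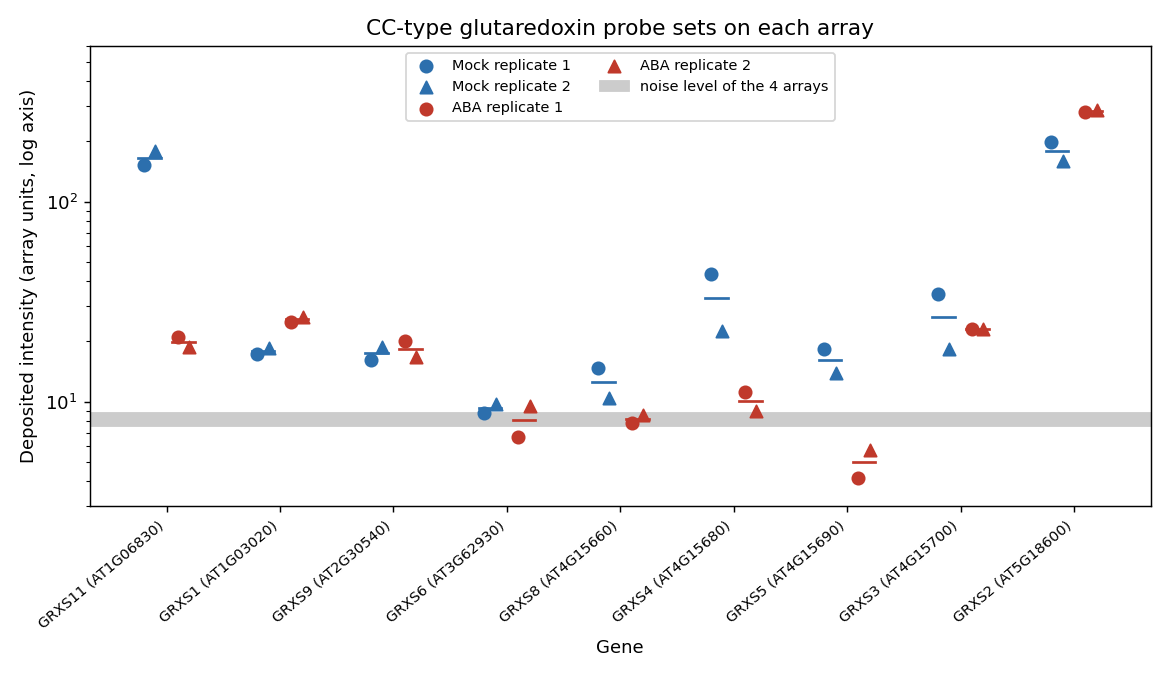
Deposited intensity (array units, log axis) of the 9 named members on each array, with circles for replicate 1, triangles for replicate 2, short lines for group means and a grey band for the noise level of the 4 arrays (7.54 to 8.76). AT1G06830 sits at 152 and 179 in mock and at 21.0 and 18.8 after ABA, AT5G18600 lies higher after ABA, and the ABA points of AT4G15690 lie under the noise band.

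The other 8 members differed in direction among themselves. In the fit across all probe sets 1 fell, 1 rose and 6 did not pass, against 19.6% lower and 3.97% higher over the whole array. The whole array includes 1194 sets at or below 0 on each array, which could not be called. When sets up to the 40th percentile of mean intensity were left out, 2 of the 8 were called lower and 2 higher. Of the 11622 sets kept, 5809 were called lower and 1063 higher. Their median change was -0.080, close to the median of all probe sets. Both ABA arrays lay below both mock arrays for 3 of the 8 and above them for 2, and the groups overlapped for 3. Over all probe sets these shares were 50.8% below and 15% above, and the members' counts stand out from neither. The scaling moved both counts. After quantile normalization 0 of the 8 were called lower and 1 higher (background 5.22% and 4.6%), after median centring 1 and 2 (12.5% and 9.69%), and with spike scaling 1 and 0 (42.2% and 2.68%). In limma 3 of the 8 were at an unadjusted p under 0.05, as were 7839 of the 19371 probe sets.

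**Figure D2:**
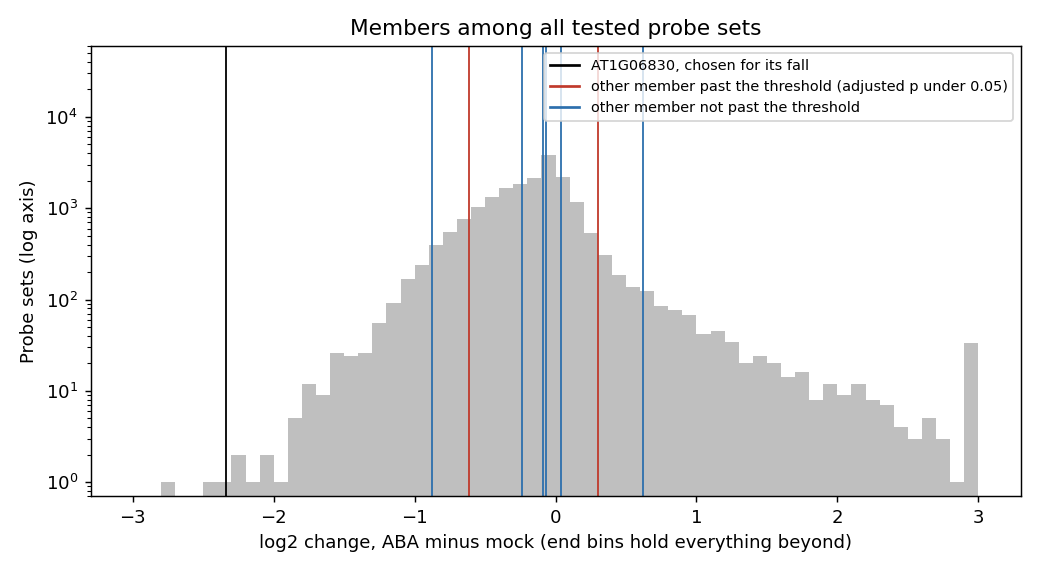
Number of probe sets (log axis) by log2 change, ABA minus mock, for all 19371 tested sets, with vertical lines at the members (black for AT1G06830, red for the other members past the threshold, blue for those not past it). AT1G06830 lies at -2.34 in the far left tail, and the other 8 members lie between -0.87 and 0.62.

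AT4G15660, AT4G15670, AT4G15680, AT4G15690 and AT4G15700 stand next to each other in the TAIR10.1 gene order of chromosome 4. They are usually called GRXS8, GRXS7, GRXS4, GRXS5 and GRXS3. Genes of this run are known to be induced by nitrate and to limit the growth of the primary root. AT4G15690 fell after ABA, while AT4G15680 read lower without passing, and AT4G15660 and AT4G15700 did not pass.

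AT4G15690 read 18.3 and 13.9 on the mock arrays and 4.16 and 5.75 on the ABA arrays. The groups did not overlap, and both ABA readings lay below the noise level of their arrays, so the size of its fall has no firm upper end. Its log2 change was -0.61 (SE 0.098, limma adjusted p = 0.0473). The change was -0.48 after quantile normalization and did not pass (limma adjusted p = 0.0857), and it did not pass with pseudocounts of 1 or 64 either (adjusted p = 0.0527 and 0.0554).

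AT4G15680 read 43.3 and 22.5 on the mock arrays and 11.2 and 8.97 on the ABA arrays. Both ABA arrays were below both mock arrays, but the mock arrays lay far apart. The group means were 32.9 ± 14.8 and 10.1 ± 1.59 (SD, n = 2 each), a ratio of 3.26. The log2 change of -0.87 had a 95% interval of -1.79 to 0.042 and did not pass (limma adjusted p = 0.133). It passed when dim probe sets were left out before the fit (limma adjusted p = 0.00547).

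AT4G15660 read 14.7 and 10.4 in mock shoots and 7.82 and 8.53 after ABA, close to the noise level in the treated group. Its log2 change was -0.24 (95% interval -0.56 to 0.083, limma adjusted p = 0.198). AT4G15700 read 34.4 and 18.3 in mock shoots and 23.1 and 23.0 after ABA. Here the ABA arrays lay between the mock arrays, and the interval of the change reached from -0.89 to 0.70. The sign of the AT4G15700 change turned after quantile normalization (0.17) and median centring (0.11), and without mock replicate 1 (0.19).

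The mock arrays differed more for the named genes of this run than for most of the array. So they did for AT5G18600 and AT1G06830 outside it, where 89.8% and 81.4% of probe sets had a smaller difference. Such shares include sets at or below 0 on each array, which show no spread. Mock replicate 1 read above mock replicate 2 for 4 of the 4 named genes of the run, as it did for 45.6% of all probe sets. The difference between mock replicates was 0.63 for AT4G15680 and 0.55 for AT4G15700 on the log2 scale, and 99.2% and 98.7% of probe sets had a smaller one. The ABA replicates differed by 0.12 and 0.0049 for the same 2 genes. The part of this spread in the results was not tested. Without mock replicate 1 the AT4G15680 change was -0.56, and without mock replicate 2 it was -1.19.

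The genes beside the run were not uniformly lower. Of the 3 nearest named genes on either side, 1 was called lower and 5 were not called, against 19.6% lower over the array. AT4G15640, 2 named genes before AT4G15660, fell from 116 ± 3.03 to 46.4 ± 1.22 (SD, n = 2 each, log2 change -1.08, limma adjusted p = 0.0166). AT4G15650, which stands between them, was at or near 0 on each array, between -1.59 and 3.17. Around AT1G06830 the 6 nearest named genes changed by -0.60 to 0.35, and 2 of them were called lower: AT1G06790 (-0.57) and bZIP52 (-0.60), a bZIP transcription factor gene. The AT1G06790 call was lost with quantile normalization (-0.27, limma adjusted p = 0.0609). For bZIP52 both ABA readings (6.48 and 7.56) lay below the noise level of their arrays.

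**Figure D3:**
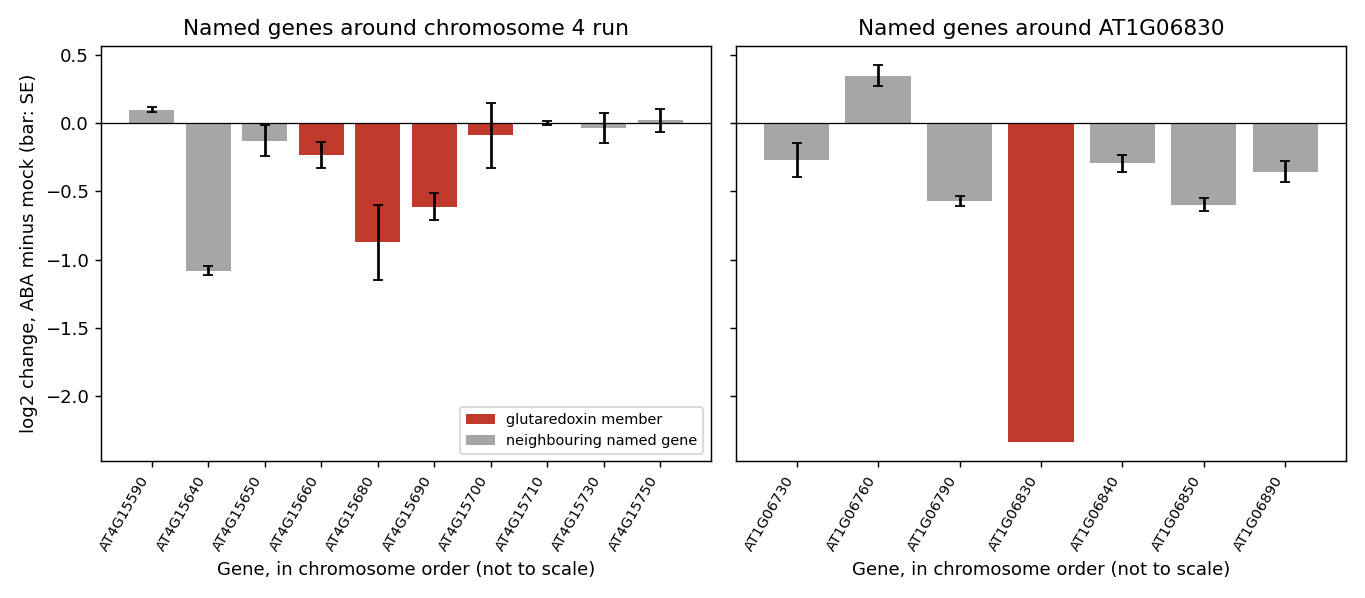
The log2 change, ABA minus mock, of named genes in chromosome order (not to scale) around the chromosome 4 run and around AT1G06830, with red bars for members, grey bars for neighbours and error lines for the SE (none for AT1G06830, which was chosen for its fall). AT1G06830 is at -2.34 and its neighbours lie between -0.60 and 0.35, while the run holds changes between -0.87 and -0.091.

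AT5G18600 (GRXS2) had the highest positive change among the members. It read 199 and 160 on the mock arrays and 280 and 286 on the ABA arrays. Both ABA arrays were above both mock arrays, with means of 283 ± 4.24 and 180 ± 27.9 (SD, n = 2 each) and a ratio of 1.57. The log2 change was 0.62 (95% interval 0.19 to 1.04) and missed the threshold (limma adjusted p = 0.0678). It passed after median centring (0.82, adjusted p = 0.0175), with dim sets left out (adjusted p = 0.00392) and with a floor of 32 (adjusted p = 0.0159). With spike scaling it shrank to 0.16 (adjusted p = 0.388).

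AT1G03020 (GRXS1) read 17.3 and 18.5 on the mock arrays and 25.1 and 26.6 on the ABA arrays. The groups did not overlap, and each replicate pair lay close together. It rose by 0.30 (SE 0.036, limma adjusted p = 0.0333), and by 0.55 after quantile normalization (limma adjusted p = 0.0295). Spike scaling left a change of 0.019 that did not pass (adjusted p = 0.759).

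AT2G30540 (GRXS9) read 16.1 and 18.8 in mock shoots and 20.1 and 16.7 after ABA. AT3G62930 (GRXS6) read 8.71 and 9.75 in mock shoots and 6.64 and 9.54 after ABA, close to the noise level. Their groups overlapped, and neither passed. The 95% interval of the change was -0.23 to 0.31 for AT2G30540 and -0.34 to 0.20 for AT3G62930. The sign of both depended on the scaling.

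The other 11 CC-type genes of the family, outside the member list, had 9 named here, of which 1 fell, 1 rose and 7 did not pass, with 4 below the noise level on each array. Over the whole class, 18 of 21 genes were named, 3 were called lower, 2 higher and 13 not called, with a median change of -0.080. The lower count includes AT1G06830, which was chosen for its fall, so its call is not a test result. Over the array 19.6% were called lower and 3.97% higher. Without AT1G06830, 1 of 8 members was called lower, and of the other CC-type genes 1 of 9. Neither lower count was above the share over the array. The higher counts, 1 of 8 and 1 of 9, were above the 3.97% share, though each rests on 1 gene.

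AT4G33040 (GRXC6) had the largest rise of the class. It read 40.6 and 32.2 on the mock arrays and 146 and 118 on the ABA arrays. Every ABA reading was well above every mock reading. The log2 change was 1.49 (SE 0.15, limma adjusted p = 0.0285), and it stayed above 0 and past the threshold with quantile normalization (1.75), median centring (1.69) and spike scaling (1.097).

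AT2G47880 (GRXC13 or CEPD2), the partner of AT1G06830 in shoot-to-root nitrogen signalling, read 59.4 and 64.002 in mock shoots and 43.9 and 38.9 after ABA. It fell by 0.44 (SE 0.068, limma adjusted p = 0.0453). That call was lost with quantile normalization (-0.13, limma adjusted p = 0.420) and with median centring (-0.24). Its neighbour AT2G47870 was below the noise level on each array.

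GRX480, which links salicylic acid responses to TGA factors, read 14.2 and 12.1 in mock shoots and 13.8 and 19.8 after ABA, and did not pass (log2 change 0.17, limma adjusted p = 0.435). ROXY1, which shapes petals and anthers, and ROXY2, which acts with it in anthers, were below the noise level on each array. AT3G62950 was too, AT3G62960 passed the noise level on 1 array only, and AT5G11930 changed by -0.26 without passing.

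**Figure D4:**
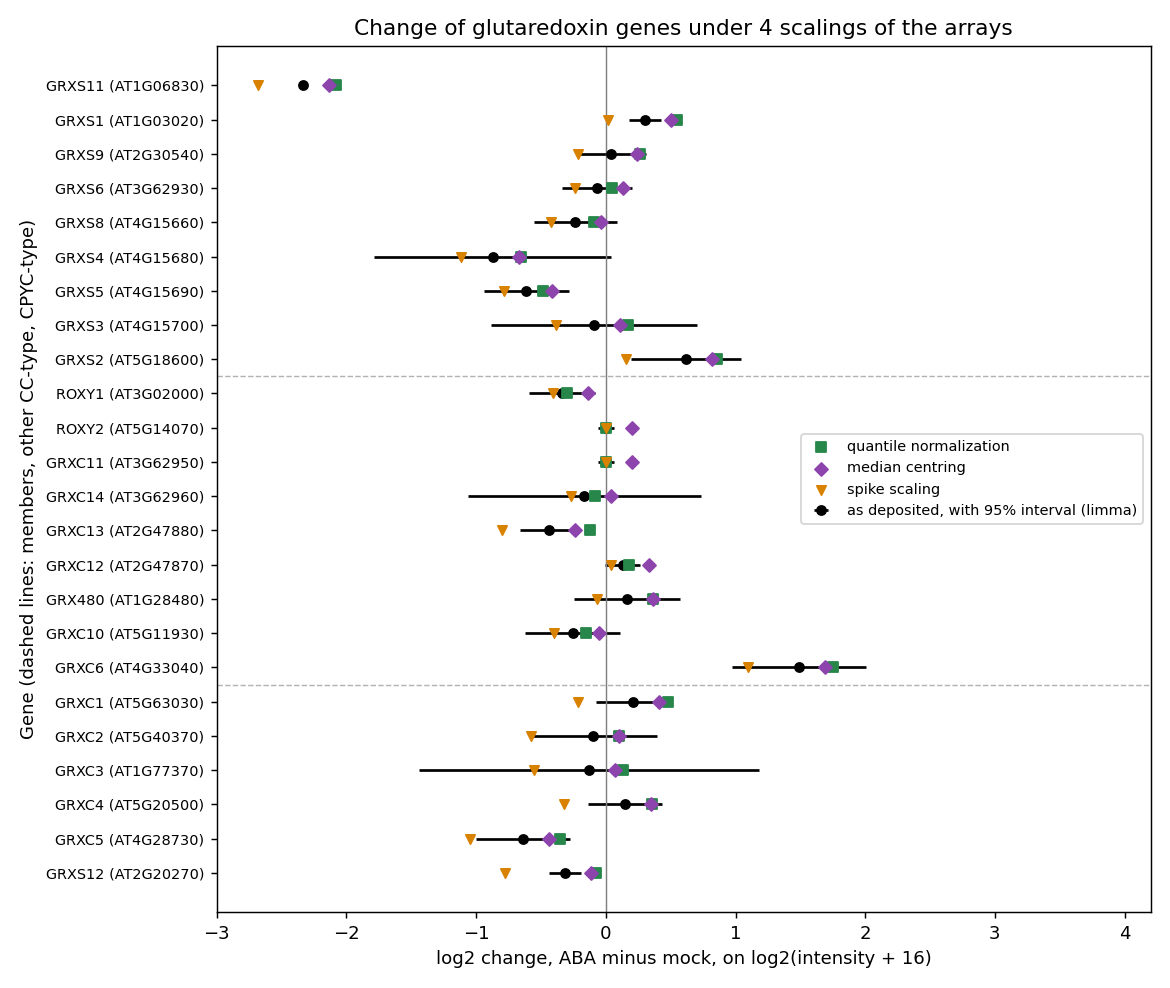
The log2 change, ABA minus mock, of 24 glutaredoxin genes as deposited (black points with 95% intervals, none for AT1G06830) and after quantile normalization, median centring and spike scaling. AT1G06830 stays below -2.0 and AT4G33040 above 1.0 under each of the 4, while the signs of several genes near 0 depend on the scaling.

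A ratio of 2 genes on the same array does not change when that array is multiplied by 1 factor, though it can change with quantile normalization or with the background subtracted. The log2 ratio of AT1G06830 over AT5G18600, without a pseudocount, was -0.39 and 0.17 on the mock arrays and -3.73 and -3.93 on the ABA arrays. The 2 genes thus moved apart by 3.72 in log2 units. Over AT2G47880 the ratio went from 1.35 and 1.49 in mock to -1.06 and -1.05 after ABA, and over AT4G33040 from 1.90 and 2.48 to -2.79 and -2.65. In each of the 3 ratios both ABA arrays lay below both mock arrays by more than 2 log2 units. Such ratios show unequal change and not which of the genes moved, and because AT1G06830 was chosen for its fall they were not tested.

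**Figure D5:**
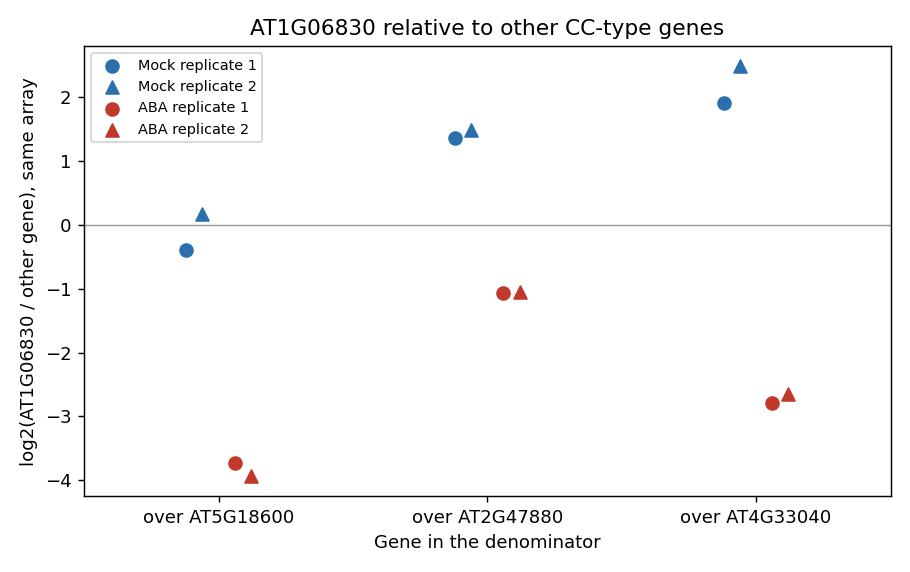
The log2 ratio of AT1G06830 over AT5G18600, AT2G47880 and AT4G33040 on each array, without a pseudocount, with blue for mock and red for ABA and with circles and triangles for replicates 1 and 2. The ABA points lie between -3.93 and -1.05, and the mock points between -0.39 and 2.48.

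Glutaredoxins of the CPYC type, which carry out general glutathione-dependent reduction, had 6 of 10 genes of the CPYC and CGFS list named, none of them of the CGFS type. Of these 1 fell and 5 did not pass, with a median change of -0.11, near the 19.6% lower and the median of -0.13 over all probe sets. AT2G20270 (GRXS12), a chloroplast glutaredoxin, fell by 0.32, from 298 ± 10.4 to 236 ± 4.24 (SD, n = 2 each, limma adjusted p = 0.0321), and after quantile normalization its change was -0.073 and did not pass. GrxC5, another chloroplast member, changed by -0.64 and did not pass (limma adjusted p = 0.0518). Among 5 named genes of the glutathione and thioredoxin list, GR1, which encodes a glutathione reductase that regenerates the reductant of glutaredoxins, rose from 337 ± 14.9 to 446 ± 11.4 (log2 change 0.39, limma adjusted p = 0.0328), with a sign that turned with spike scaling (-0.084). The other 4 did not pass.

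Genes that act around these glutaredoxins were thinly covered. None of 10 TGA factor genes and none of 5 TOPLESS co-repressor genes was named here. AT1G68670 (HHO2), a GARP-type transcriptional repressor that acts in nitrogen and phosphate responses, was the 1 named gene of 26 on the nitrate list. It fell from 115 ± 7.69 to 67.5 ± 0.343 (SD, n = 2 each, log2 change -0.65, limma adjusted p = 0.0230), and after quantile normalization it did not pass (-0.37, limma adjusted p = 0.0649). AT4G32950 (CEPH), a phosphatase that acts below the CEPD proteins on a root nitrate transporter, read 7.14 and 7.90 in mock shoots and 7.11 and 12.1 after ABA, near the noise level, and did not pass. Of the type-A cytokinin response regulators, ARR15 (-0.46, limma adjusted p = 0.0507) and RR16 (0.064), the 2 named of 10, did not pass.

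Some of the few named marker genes of mesophyll and root passed the threshold. The markers were chosen with earlier results of these data known, so their counts are a description without a test. Of 8 mesophyll markers 3 were named, and 3 were called lower (19.6% over the array), with summed intensities of 4793 to 5107 on the mock arrays and 3367 to 3520 on the ABA arrays. The calls of LHCB4.1 and LHCB4.2 among them were lost with quantile normalization (-0.055 and -0.11, limma adjusted p = 0.529 and 0.296) and with median centring (adjusted p = 0.138 and 0.145). Of 5 root markers 2 were named, with summed intensities of 280 to 321 on the mock arrays and 106 to 122 on the ABA arrays. PYK10, a root and hypocotyl beta-glucosidase, made up nearly all of this sum and was called lower. EXPA7, a root hair gene, was called higher (log2 change 0.12, limma adjusted p = 0.0491) at readings below the noise level on each array. FAMA was the 1 guard cell marker named of 4 and did not pass (-0.50), and none of 3 phloem companion cell markers was named. The part of these cell types in the AT1G06830 change was not tested.

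By a rule set on all 4 arrays, the 5 genes most like AT1G06830 were sought among 6141 named genes whose mean over the 4 arrays was above the highest noise level. Likeness was the root mean square difference between the 4 log2 values after each gene's own mean was taken off. The nearest was AT4G21870, a gene of the small heat shock protein kind, at a distance of 0.13, with readings of 72.5 and 97.3 in mock shoots and 4.78 and -0.640 after ABA. Both ABA readings lay below the noise level, so it entered the search through its mock readings. AT5G63180 followed at 0.19, with 225 and 216 in mock shoots and 37.6 and 44.5 after ABA. AT1G73600, a phosphoethanolamine methyltransferase gene, came next at 0.21, AT1G27020 at 0.23 and AT1G66940 at 0.29. No glutaredoxin was among the 5. The measure rests on 4 arrays and includes the treatment change by which AT1G06830 was chosen.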

How the data were processed

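Shoot RNA of 4 pools was amplified, labelled with biotin and hybridised to 1-colour arrays, per the labels' protocols. The authors deposited 1 linear intensity per probe set and array. Their software, background correction and scaling are not given in the sources at hand. Of 19658 probe sets, 287 controls were removed. Negative intensities were replaced by 0, and log2 was taken after adding 16, so changes of dim genes are understated. The fit was limma 3.58.1 in R 4.3.3 (lmFit, then eBayes, both tails), adjusted by Benjamini-Hochberg over 19371 sets and treatment as the only term. The fit was tested on simulated data. GEO's platform annotation gave the gene names, mostly locus codes, brought up to TAIR10.1. GRX and CEPD names are general knowledge. With several sets per gene, the brightest by mean over 4 arrays was used. Members, lists and cell type markers were chosen with earlier results of these data known. The text names every member, up to 4 called genes per list (or the 2 largest changes) and the 5 nearest patterns. The ratios, neighbouring genes, replicate spread and further family members were added after values were seen. Alternatives were pseudocounts of 1 and 64, quantile, median and spike scaling, a filter at the 40th percentile, a floor of 32, an intensity trend, a replicate block and leaving out each array. No promoter or protein sequence was used here.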

Additional observations from a re-analysis of the deposited data

How the results depend on the processing

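AT1G06830 stayed between -2.99 and -1.45 under every alternative run, and leaving out 1 array gave -2.45 to -2.23. Of the 9 members, 2 were called lower and 1 higher in the fit used above. The lower count includes AT1G06830, which was chosen for its fall. The lower count was 1 with a pseudocount of 1, a pseudocount of 64, quantile normalization or a floor of 32, and 3 with the filter on dim sets. The higher count was 2 after median centring or the filter on dim sets, and 0 with spike scaling or the intensity trend. Over all 19371 probe sets, 3805 lower calls (19.6%) became 2986 with a pseudocount of 1, 3760 with 64 and 3430 with the intensity trend. They became 1011 (5.22%) after quantile normalization, 2424 (12.5%) after median centring and 8169 (42.2%) with spike scaling. With the filter 5809 of 11622 sets were called lower, and with the floor 4029 of 8054. The 769 higher calls (3.97%) became 1878 (9.69%) after median centring, 520 (2.68%) with spike scaling, 756 with the trend and 1063 with the filter. For the other CC-type genes the lower count of 1 became 0 with a pseudocount of 1, quantile normalization or median centring, and 2 with spike scaling. For CPYC-type genes it became 0 with a pseudocount of 1 or quantile normalization, and 2 with a pseudocount of 64, spike scaling, the filter, the floor or the trend. HHO2 was lost after quantile normalization (0 called). The cytokinin list (2 named) went from 0 to 1 lower with a pseudocount of 64, spike scaling or the filter. The glutathione and thioredoxin list (5 named) went from 0 to 3 with spike scaling and to 1 with the filter or the floor. These small counts are to be read beside the shares over all probe sets given above, and are no result about the lists. The cause of these moves was not tested.

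Signs turned for AT2G30540 (-0.22 with spike scaling, and -0.032 to 0.11 with 1 array left out), AT3G62930 (0.051 quantile, 0.13 centred, and -0.16 to 0.018 with 1 array left out) and AT4G15700 (0.17 quantile, 0.11 centred, and -0.37 to 0.19 with 1 array left out). The arrays whose loss turned the sign were ABA replicate 1 and mock replicate 1 for AT2G30540, ABA replicate 1 for AT3G62930 and mock replicate 1 for AT4G15700.

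Leaving out any 1 of the 4 arrays gave 0 calls in limma in each of these counts (lowest 0, highest 0), while 5780 to 6459 probe sets had an unadjusted p under 0.05 (7839 with all arrays). With the replicate block, limma also gave 0 calls in each of these counts. At an unadjusted p under 0.05 there were 7115 sets and 4 of 9 members, with the chosen AT1G06830 in the 9. The labels do not say whether equal replicate numbers mark paired samples. Same-numbered arrays deviated from their group means with r = 0.039 across probe sets, which cannot settle whether they were paired. The floor could be fitted for 4 members only, since the others lay below 32 on each array. No member had more than 1 probe set, so that alternative was not run.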
